A study of Bos taurus with 8 samples.

Results

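The genes described here are the insulin-like growth factors IGF1 and IGF2, the receptor IGF1R, the acid-labile subunit IGFALS and the binding proteins IGFBP1 to IGFBP6, in the liver of Japanese Black fetal calves. They were chosen as members of 1 hormone system, with earlier results of these data known, and were found through the RefSeq accession that each array probe carries. All 10 genes were matched, out of 12603 genes matched on the array, with 32 probes. Each of these probes was well above background on 8 of 8 arrays, so no member was lost to the filter on dim signals.

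The liver came from fetuses at 8.5 months post-conception (about day 260 of gestation), and each was hybridised to its own 1-colour Agilent bovine array. Dams were fed at 60% of the requirement in the low-nutrition (LN) group and at 120% in the high-nutrition (HN) group, over the whole gestation and the period before it. The LN fetuses are numbered L5, L6, L8 and L9 and the HN fetuses L1, L2, L3 and L10, which gives 4 against 4, and the question is whether liver RNA differed between these maternal diets. All dams were multiparous Japanese Black cows inseminated with semen of a single sire that had been sorted for males. The arrays were given the lightest fetuses of the LN group and the heaviest of the HN group, by the study's methods, and no group was fed at 100% of the requirement, so the contrast is between extremes. The submitters' general description speaks of pooled RNA, whereas the sample labels name 1 fetus per array, and each array is taken here as 1 of 8 fetuses.

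Insulin-like growth factors are small secreted proteins related to insulin that drive growth of the fetus and its organs through the receptor tyrosine kinase IGF1R. IGF2 is the main form before birth and the liver makes much of it, whereas hepatic IGF1 comes under the control of growth hormone around and after birth. In blood and tissue both are held by binding proteins, which prolong their life or keep them from the receptor, and IGFBP3 or IGFBP5 together with the acid-labile subunit forms the large circulating complex.

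Values are log2 array signals after quantile normalization, and a gene is represented by its brightest detected probe. Probes differ in how strongly they bind, so signals are compared between fetuses and not between genes. Differences are LN minus HN, so that a value of 1 would be a 2-fold higher signal in LN. The whole array gave 10860 genes with a detected probe, and the number of spots well above background was between 32635 and 34369 per array, with 0 saturated spots. The groups were on separate slides, 1 for LN and 1 for HN, scanned separately, and an effect of slide or scan and one of diet cannot be told apart. With 4 against 4 fetuses an exact permutation test cannot give a p below 0.0286, and precision is limited by how few arrays there are. In whole tissue, fewer cells of a type and less RNA per cell cannot be told apart.

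None of the 10 genes differed between LN and HN beyond the spread between fetuses. In limma, 0 of the 10 genes had an adjusted p of at most 0.05, against 0% of all 10860 genes, and the lowest adjusted p among them was 0.792. At an unadjusted p of at most 0.05 the count was 0 of 10 genes, against 6.05% of all genes, and 0 of their 32 probes, against 6.32% of all detected probes. With the position of the array on its slide as a block, the count of genes was 1 (IGF1). The ranges of LN and HN overlapped for all 10, where 4.14% of all genes had no overlap. The mean was lower in LN for 7 of the 10 genes and higher for 3, with a median difference of -0.12, while over the whole array the share lower in LN was 48.4% and the median 0.0075. In size, IGFALS (-0.74) and IGF1 (-0.53) stood first, at percentiles 97.5 and 94.0 of all genes. With normexp background correction the order of these changed, to -0.26 for IGFALS and -0.47 for IGF1. IGF2 (-0.016) and IGFBP3 (0.023) stood last, at percentiles 6.4 and 9.3.

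**Figure D1:**
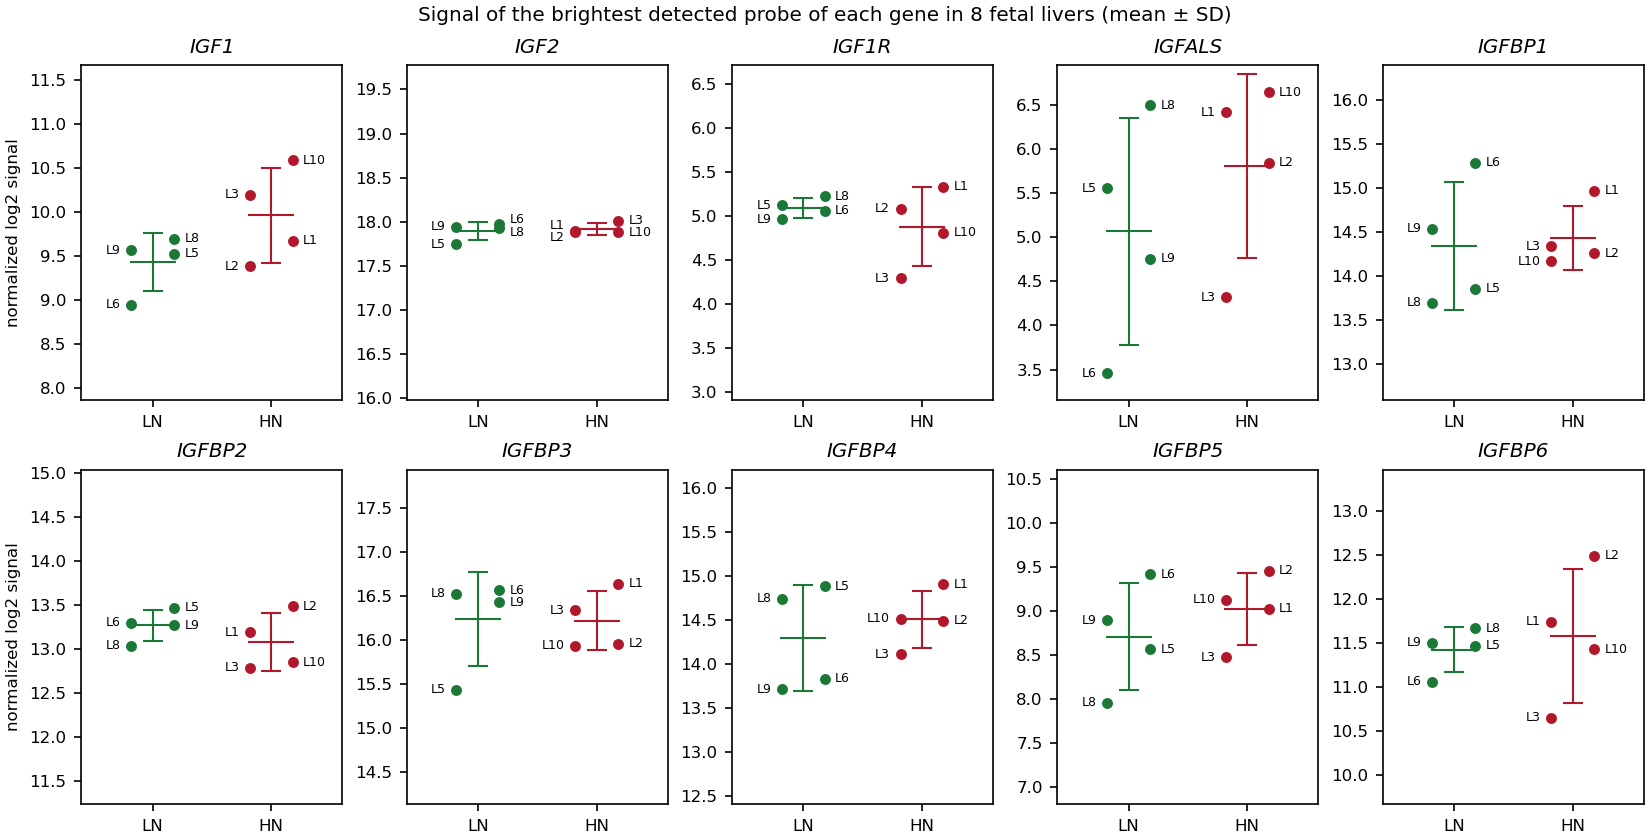
Normalized log2 signal of the brightest detected probe of each gene (vertical axes, each spanning the same number of log2 units but at its own level) in the 4 LN and 4 HN fetuses, with the group mean and SD as a bar and whiskers. The groups overlap in every panel, IGFALS spreads from 3.46 to 6.65, and IGF2 stays between 17.74 and 18.01.

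Among the ligands, IGF1, the growth factor that growth hormone controls after birth, read 9.53, 8.95, 9.70 and 9.57 in LN fetuses L5, L6, L8 and L9. It read 9.68, 9.39, 10.20 and 10.59 in HN fetuses L1, L2, L3 and L10. The highest signals were those of HN L10 and HN L3 and the lowest that of LN L6, while HN L2 lay below 3 of the 4 LN fetuses. The mean was 9.44 ± 0.33 (SD, n = 4) in LN and 9.96 ± 0.53 in HN, which is 1.44-fold higher in HN. The difference of -0.53 had a standard error of 0.28 and a 95% interval of -1.15 to 0.10 (limma adjusted p = 0.792, exact permutation p = 0.229). The interval reaches from more than a doubling in HN to a slightly higher level in LN.

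The other probes of IGF1 gave differences of -0.58 and -0.50. All 3 probes had LN L6 as the lowest fetus and HN L10 as the highest, and the correlation between them over the 8 fetuses was between 0.87 and 0.96 (Pearson's r, probes of 1 transcript on shared arrays). The size of the difference rested in part on single fetuses. Without HN L10 it was -0.32, and without HN L2 it was -0.72, where the unadjusted limma p was 0.0261 and the adjusted p 0.829. With slide position as a block the difference was the same, with an unadjusted limma p of 0.0281 in place of 0.0907 and an adjusted p of 0.940.

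IGF2, the fetal growth factor and an imprinted gene, read 17.74, 17.97, 17.93 and 17.94 in L5, L6, L8 and L9 of LN. In L1, L2, L3 and L10 of HN it read 17.89, 17.88, 18.01 and 17.88. The means of 17.90 ± 0.10 and 17.91 ± 0.06 (SD, n = 4 each) differed by -0.016, with a standard error of 0.11 and a 95% interval of -0.26 to 0.23 (limma adjusted p = 0.986, exact permutation p = 0.857). Leaving out LN L5 turned the direction, to 0.038. On this probe the spread over the 8 fetuses was narrow, at percentile 3.3 of all genes, while other IGF2 probes ranged up to 0.72. These signals lie near the bright end of the array, where the brightest spots of the arrays had intensities between 369020 and 438318 and the brightest IGF2 probe between 230196 and 264344. Log2 75th percentiles of the arrays went from 9.0 to 9.72 before normalization. With 75th percentile scaling the standard error was 0.19 in place of 0.11. Whether signals are compressed at this end was not tested.

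The array carries 11 probes for IGF2, more than for any other member. Their range over the fetuses went from 0.09 for the second brightest to 0.72 for the tenth. The 5 brightest were lowest in LN L5. The 6 others were lowest in LN L6 or HN L3 instead. Correlations between pairs of IGF2 probes went from -0.82 to 0.98, so the order of the fetuses depended on the probe.

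The difference was lower in LN for 9 of the 11 probes and reached -0.23 at the sixth (limma adjusted p = 0.792, exact permutation p = 0.0571). This probe read 15.93, 15.64, 15.74 and 15.97 in the LN fetuses L5, L6, L8 and L9, and 16.04, 15.96, 16 and 16.21 in the HN fetuses L1, L2, L3 and L10. The groups overlapped there only because LN L9 lay just above HN L2. The 2 dimmest probes gave 0.042 and 0.024, in the other direction. With 1 probe per gene taken by brightness, the IGF2 value above therefore describes the brightest probe and not the other IGF2 probes. Why the probes differ was not tested.

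**Figure D2:**
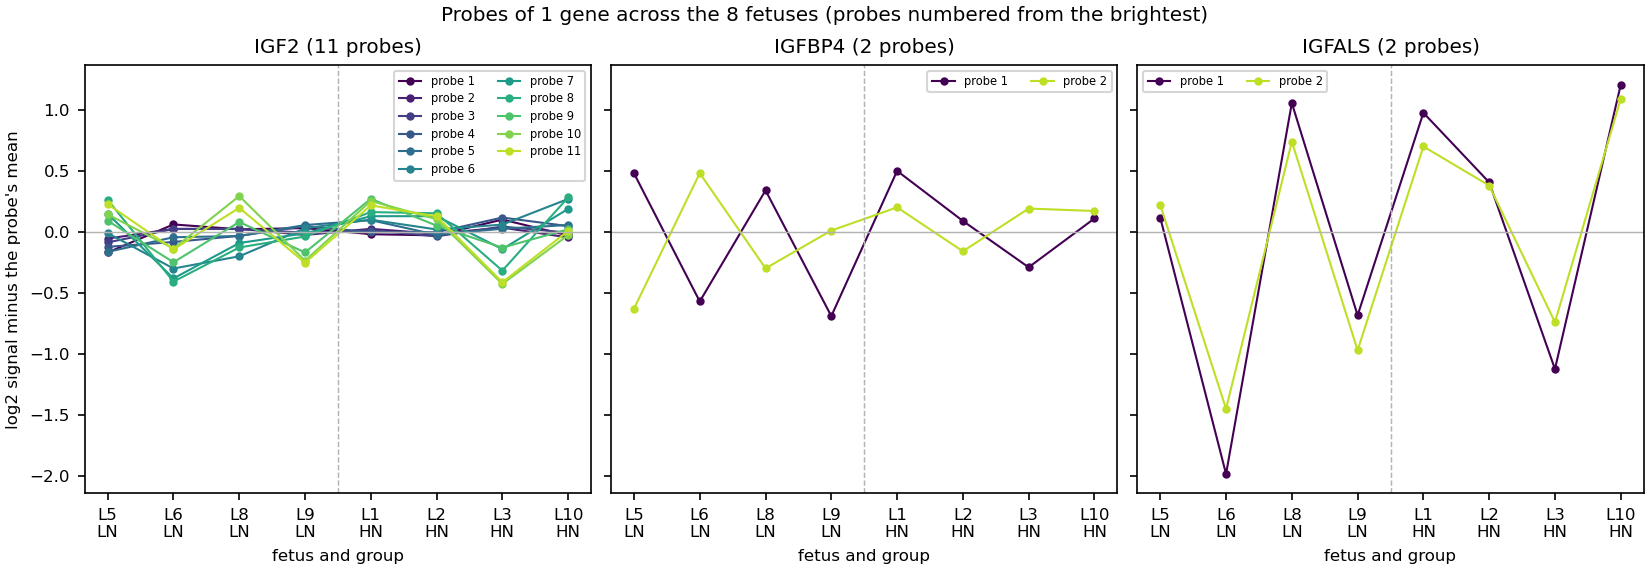
Log2 signal minus the mean of that probe over the 8 fetuses (vertical axis, shared) for every probe of IGF2, IGFBP4 and IGFALS, with the fetuses and their group along the horizontal axis and probes numbered from the brightest. The IGFALS probes follow each other (r = 0.98), the IGFBP4 probes run against each other (r = -0.56), and the IGF2 probes fall into flat and wider profiles.

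IGF1R, the receptor through which both ligands signal, had 1 probe. It read 5.12, 5.06, 5.22 and 4.96 in the LN fetuses L5, L6, L8 and L9, and 5.33, 5.08, 4.29 and 4.81 in the HN fetuses L1, L2, L3 and L10. HN L3 was the lowest and HN L1 the highest, so the LN fetuses lay inside the range of HN. The means were 5.09 ± 0.11 and 4.88 ± 0.44 (SD, n = 4 each), a difference of 0.21 with a standard error of 0.21 and a 95% interval of -0.27 to 0.69 (limma adjusted p = 0.885, exact permutation p = 0.457). Without HN L3 the difference was 0.018, with 75th percentile scaling 0.019 and with normexp background correction 0.047. The probe was dim, with intensities between 20 and 46 before normalization.

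IGFALS encodes the acid-labile subunit, the liver protein that completes the large circulating complex and whose gene is a classical growth hormone target. Its signal was 5.56, 3.46, 6.5 and 4.76 in LN fetuses L5, L6, L8 and L9. It was 6.42, 5.85, 4.32 and 6.65 in HN fetuses L1, L2, L3 and L10. The lowest fetuses were LN L6 and HN L3, and the highest were HN L10 and LN L8, so each group held both high and low animals. The range of 3.20 over the 8 fetuses was the widest of the 10 genes and lay at percentile 98.4 of all genes.

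The IGFALS means were 5.07 ± 1.29 in LN and 5.81 ± 1.05 in HN (SD, n = 4 each). The difference of -0.74 had a standard error of 0.69 and a 95% interval of -2.32 to 0.83 (limma adjusted p = 0.878, exact permutation p = 0.400). It was -1.25 without HN L3, -0.20 without LN L6 and -0.26 with normexp background correction. The other IGFALS probe gave -0.72 and followed the same fetuses with r = 0.98. Both probes were dim, with intensities from 8 to 97 before normalization.

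The fetuses that were low for IGFALS were also low for many other probes. Fetuses L3, L6 and L9 were the 3 lowest for both IGFALS probes, and this was also so for the brightest IGFBP4 probe, the second IGFBP6 probe and 3 IGF2 probes, 7 of the 32 probes in all. Over all 33439 detected probes the same fetuses were the 3 lowest for 3071 (9.18%). Of the 56 possible sets of 3 fetuses this was the most frequent, and the median set had 442 probes. L6, L9, L10 and L3 also had the dimmest arrays before normalization, with log2 75th percentiles of 9.0, 9.05, 9.17 and 9.28, against 9.47 to 9.72 in the other 4. The part of array brightness in these values was tested only as a covariate, under which 1 of the 10 genes changed direction (IGFBP3, from 0.023 to -0.046).

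The differences of the 6 binding proteins lay between -0.31 and 0.19. IGFBP1, which the liver releases in fasting, under-oxygenation and growth restriction and which insulin represses, read 13.86, 15.29, 13.70 and 14.54 in LN fetuses L5, L6, L8 and L9. It read 14.97, 14.26, 14.34 and 14.17 in HN fetuses L1, L2, L3 and L10. The highest and the lowest of the 8 fetuses, L6 and L8, were both LN, and the HN fetuses lay between them. The means of 14.35 ± 0.72 and 14.43 ± 0.36 (SD, n = 4 each) differed by -0.086, with a 95% interval of -0.88 to 0.70 (limma adjusted p = 0.977, exact permutation p = 0.829). The direction depended on single fetuses, at -0.40 without LN L6 and 0.13 without LN L8, and the second probe gave 0.015.

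IGFBP2, a binding protein that is abundant in fetal liver and serum, read 13.47, 13.30, 13.04 and 13.27 in LN fetuses L5, L6, L8 and L9, and 13.19, 13.49, 12.79 and 12.85 in HN fetuses L1, L2, L3 and L10. HN L3 and HN L10 were the lowest, and HN L2 the highest. The means were 13.27 ± 0.18 and 13.08 ± 0.32 (SD, n = 4 each), a difference of 0.19 with a 95% interval of -0.22 to 0.60 (limma adjusted p = 0.878, exact permutation p = 0.314). The difference was 0.094 without HN L3 and 0.33 without HN L2, and the second probe gave 0.13.

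IGFBP3, the main carrier in the circulating complex, read 15.44, 16.57, 16.53 and 16.43 in LN fetuses L5, L6, L8 and L9. It read 16.64, 15.96, 16.34 and 15.94 in HN fetuses L1, L2, L3 and L10. LN L5 stood alone at the bottom while the other LN fetuses were among the highest. The means of 16.24 ± 0.54 and 16.22 ± 0.34 (SD, n = 4 each) differed by 0.023, with a 95% interval of -0.61 to 0.66 (limma adjusted p = 0.991, exact permutation p = 0.971). Without LN L5 the difference was 0.30.

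LN L5 was the lowest fetus for all 5 IGFBP3 probes, which gave differences between 0.023 and 0.18. The same fetus had the highest mean over red cell genes. The mean deviation of 9 erythroid markers from their mean over all fetuses was 2.97 in LN L5, between -0.61 and 0.17 in the other LN fetuses and between -1.69 and 0.13 in HN. The globins among these markers were all highest in L5, with HBM at 11.72, HBA at 16.83, HBB at 14.01 and HBG at 17.31, whereas TFRC, the transferrin receptor, read 5.43 there and between 5.16 and 7.68 over all fetuses. The part of red cell RNA in the IGFBP3 values was not tested, and the difference without LN L5 is given above.

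IGFBP4, a binding protein that mostly restrains the ligands until a protease cuts it, read 14.88, 13.83, 14.74 and 13.71 in LN fetuses L5, L6, L8 and L9 on its brighter probe. It read 14.90, 14.49, 14.11 and 14.51 in HN fetuses L1, L2, L3 and L10. The means were 14.29 ± 0.60 and 14.50 ± 0.32 (SD, n = 4 each), a difference of -0.21 with a 95% interval of -0.89 to 0.47 (limma adjusted p = 0.925, exact permutation p = 0.486). LN L9 and LN L6 lay below every HN fetus, while LN L5 and LN L8 lay above 3 of the 4 HN fetuses and below HN L1.

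The second IGFBP4 probe read 12.74, 13.85, 13.07 and 13.38 in LN and 13.57, 13.21, 13.56 and 13.54 in HN, in the same order of fetuses. LN L6, among the lowest on the brighter probe, was here the highest, and LN L5, among the highest there, was here the lowest. The correlation between the probes was -0.56. Both gave a mean difference of -0.21 while disagreeing on which fetuses were high. On the brighter probe this was -0.41 without LN L5 and -0.019 without LN L9. IGFBP4 was the only member besides IGF2 with a negative correlation between any of its probes.

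IGFBP5, which can replace IGFBP3 in the large complex and binds to matrix, read 8.57, 9.42, 7.96 and 8.90 in LN fetuses L5, L6, L8 and L9, and 9.03, 9.46, 8.48 and 9.13 in HN fetuses L1, L2, L3 and L10. HN L2 and LN L6 were the highest and LN L8 the lowest. The means were 8.71 ± 0.61 and 9.03 ± 0.41 (SD, n = 4 each), a difference of -0.31 with a 95% interval of -1.03 to 0.41 (limma adjusted p = 0.887, exact permutation p = 0.400). The second probe gave -0.12, and the difference was -0.061 without LN L8.

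IGFBP6, a binding protein that prefers IGF2, read 11.47, 11.06, 11.67 and 11.50 in LN fetuses L5, L6, L8 and L9. It read 11.74, 12.49, 10.65 and 11.43 in HN fetuses L1, L2, L3 and L10. The highest and the lowest fetus, L2 and L3, were both HN. The means of 11.43 ± 0.26 and 11.58 ± 0.76 (SD, n = 4 each) differed by -0.15, with a 95% interval of -0.94 to 0.64 (limma adjusted p = 0.953, exact permutation p = 0.800). The second probe gave -0.35. On the brighter probe the difference was 0.15 without HN L2 and -0.46 without HN L3.

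The HN fetuses at the extremes of IGFBP6 were also at the extremes of 2 lists of cell type markers. The mean deviation of 12 stellate and mesenchymal markers was 0.47 in HN L2 and -0.51 in HN L3, and between -0.12 and 0.10 in the other 6 fetuses. LUM, a matrix proteoglycan of fibroblasts, read 11.18 in HN L2 and 8.41 in HN L3, its highest and lowest fetus. COL1A1, a chain of fibrillar collagen, read 14.43 and 12.37 in the same fetuses, again the extremes. Of the 12 markers 10 were higher in HN L2 than in HN L3, while LRAT (7.29 and 8.26) and RELN (12.69 and 12.93), both genes of stellate cells, were lower. The 9 macrophage markers ran the other way, with a mean deviation of -0.59 in HN L2 and 0.38 in HN L3, between -0.30 and 0.22 in the other fetuses, and 9 of 9 lower in HN L2 than in HN L3. LUM and COL1A1 were named after their values were seen. The part of mesenchymal or macrophage content in the IGFBP6 values was not tested.

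**Figure D3:**
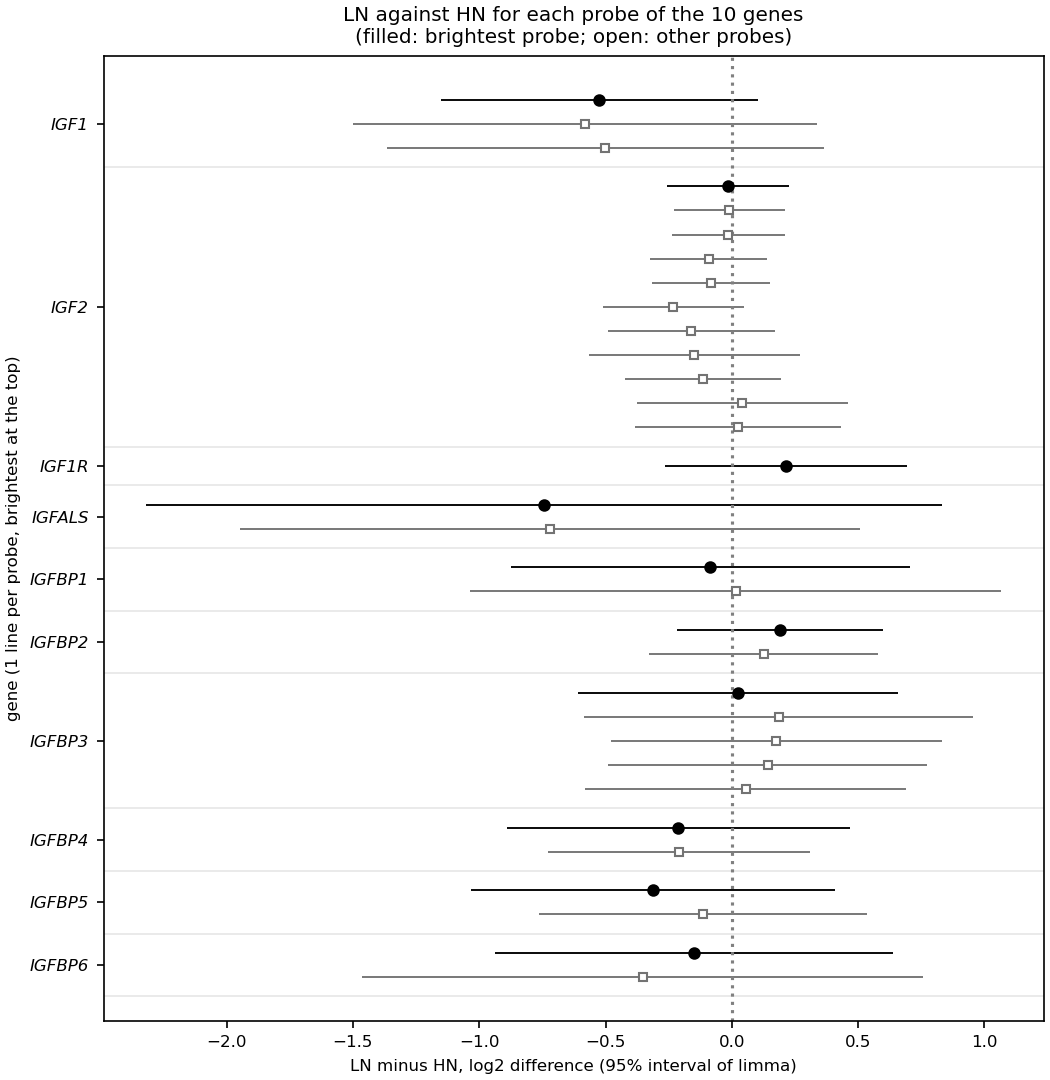
LN minus HN difference in log2 signal (horizontal axis) for each of the 32 probes, grouped by gene with the brightest probe filled, and lines for the 95% interval of limma. Every interval includes 0, the intervals of IGFALS are the widest, and probes of 1 gene fall on both sides of 0 for IGF2 and IGFBP1.

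Of the 9 members with more than 1 probe, 2 (IGF2 and IGFBP1) had probes in both directions, while over the array this was so for 2153 of 6687 genes (32.2%). In the reference gene order IGFBP1 and IGFBP3 are neighbours with 0 protein-coding genes between them, and so are IGFBP2 and IGFBP5. Over the 8 fetuses the first pair of neighbours had r = 0.57 (exact permutation p = 0.140) with Spearman's rho of 0.62 (p = 0.115), and r = 0.25 without L6 and L1. The second had r = 0.38 (exact permutation p = 0.35) with rho of 0.52 (p = 0.197), and r = 0.58 without L3 and L10. Neither relation passed its test, before or after adjustment (adjusted p = 0.599 and 0.656 for r, and 0.643 for both rho).

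All 45 pairs of the 10 genes were compared in the same way, and 22 were positive and 23 negative. For 3 the exact permutation p of Pearson's r was at most 0.05 before adjustment, and for 0 after Benjamini-Hochberg adjustment over the 45 (lowest adjusted p = 0.302, for each of the 3). IGF1 and IGFBP2 ran against each other, with r = -0.80 (exact permutation p = 0.0152) and Spearman's rho of -0.90 (p = 0.00456, adjusted p = 0.205). This relation was r = -0.94 without L10 and L6, the fetuses farthest from the median of IGF1, and r = -0.77 after the group means were taken off.

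IGFALS and IGFBP4 had r = 0.80 (exact permutation p = 0.0192) and rho of 0.64 (p = 0.0962, adjusted p = 0.643), with r = 0.71 without L6 and L3 and 0.79 within groups. This relation uses the brighter IGFBP4 probe, which had a correlation of -0.56 with the other, and it was not tested on that other probe. L3, L6 and L9 were the lowest fetuses for both IGFALS and the brighter IGFBP4 probe, which was also the most frequent such set over the array. IGF2 and IGFBP3 had r = 0.80 (exact permutation p = 0.0201) and rho of 0.59 (p = 0.134, adjusted p = 0.643), with r = 0.63 without L5 and L3 and 0.80 within groups. The latter relation uses the brightest IGF2 probe, and correlations between IGF2 probes went as low as -0.82. It was not tested on the others. LN L5 was the lowest fetus for IGF2 and IGFBP3 on their brightest probes, while on dimmer IGF2 probes LN L6 or HN L3 was the lowest.

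Likeness over the 8 fetuses was also searched among the other 10850 genes, for the 3 members with the widest range. The closest to IGFALS were ARHGEF19 (r = 0.991), GPAT4 (r = 0.986), an enzyme of glycerolipid synthesis, and NUDT5 (r = 0.966). The closest to IGFBP6 were EFEMP1 (r = 0.989), a protein of the extracellular matrix, SCRN1 (r = 0.983) and LRPAP1 (r = 0.974). The closest to IGF1 were GOLT1A (r = 0.970), MTF1 (r = 0.969), a metal-responsive transcription factor, and GALNT5 (r = 0.959). These are the highest of many coefficients over few fetuses and are given as a description, with no test.

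The other genes of the pathway were taken from written lists. Of 22 receptor and signalling genes 13 were detected, with 4 higher and 9 lower in LN, a median difference of -0.052 (-0.098 without LN L9 and -0.0070 without LN L8) and 0 at an unadjusted p of at most 0.05, where the shares over all genes were 3.3% higher and 2.75% lower. IGF2R, the receptor that clears IGF2, read 14.76, 15.07, 14.72 and 14.93 in LN fetuses L5, L6, L8 and L9, and 14.84, 14.88, 15.10 and 14.53 in HN fetuses L1, L2, L3 and L10. Its difference was 0.036 with a standard error of 0.15 (exact permutation p = 0.829), and the LN fetuses lay within the range of HN. INSR, the insulin receptor, had no matched probe and was not analysed here.

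Of 9 genes of the growth hormone axis 5 were detected, with 2 higher and 3 lower in LN, a median of -0.016 and 0 at an unadjusted p of at most 0.05. The median was -0.13 without LN L9 and 0.18 without LN L5. GHR, the growth hormone receptor, read 9.56, 10.54, 10.80 and 10.74 in LN fetuses L5, L6, L8 and L9, and 10.71, 9.97, 10.36 and 10.67 in HN fetuses L1, L2, L3 and L10. The difference was -0.016 with a standard error of 0.29 (exact permutation p = 0.971). LN L5 was the lowest, and without it the difference was 0.27.

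Of 11 genes for enzymes and regulators of binding protein cleavage 6 were detected, 3 higher and 3 lower with a median of 0.044 (-0.14 without LN L5 and 0.20 without HN L2), and 1 had an unadjusted p of at most 0.05. This was ADAMTS1, a secreted metalloprotease of the matrix. It read 13.56, 14.12, 14.22 and 14.43 in LN fetuses L5, L6, L8 and L9, and 13.39, 13.31, 13.37 and 13.59 in HN fetuses L1, L2, L3 and L10. LN L5 lay below HN L10, and the other LN fetuses were above every HN fetus. The difference of 0.67 (standard error 0.19) had a limma p of 0.00615 and an adjusted p of 0.760 (exact permutation p = 0.0571).

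Of 10 related secreted proteins 8 were detected, 5 higher and 3 lower with a median of 0.078 (-0.22 without LN L8 and 0.10 without LN L5) and 0 at an unadjusted p of at most 0.05. The 3 IGF2 mRNA-binding proteins, fetal RNA-binding proteins named for their binding to IGF2 transcripts, were all detected and all higher in LN with a median of 0.28 (0.12 without HN L2 and 0.43 without HN L3), and 1 had an unadjusted p of at most 0.05. This was IGF2BP1, at 10.07, 9.51, 10.43 and 9.78 in LN fetuses L5, L6, L8 and L9 and at 9.67, 9.45, 9.39 and 9.42 in HN fetuses L1, L2, L3 and L10. LN L6 lay below HN L1 and the other LN fetuses above all of HN. The difference of 0.46 (standard error 0.20) had a limma p of 0.0435 and an adjusted p of 0.785 (exact permutation p = 0.0571). The unadjusted limma p was 0.0563 with slide position as a block, and between 0.0809 and 0.108 without LN L5, LN L8, HN L2, HN L3 or HN L10, so that this call was lost there.

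**Figure D4:**
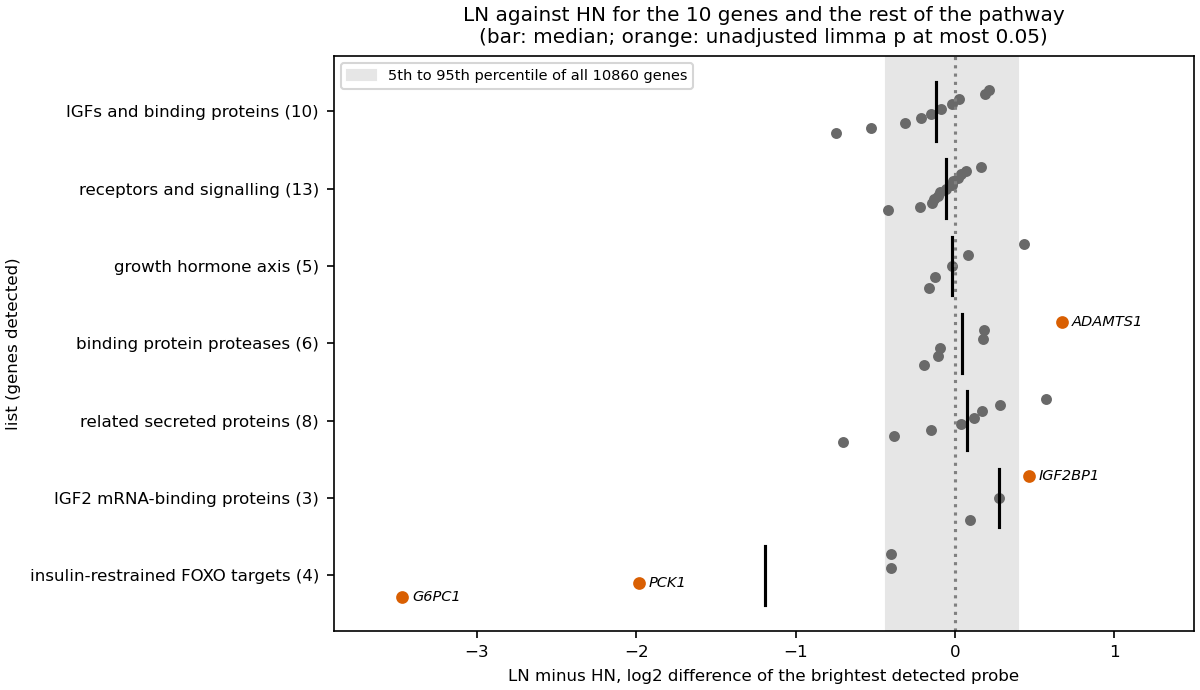
LN minus HN difference in log2 signal of each detected gene (horizontal axis), in rows by list with the number of genes detected, a bar at the median of each list, and the 5th to 95th percentile of all 10860 genes shaded. Orange marks an unadjusted limma p of at most 0.05, for ADAMTS1 (0.67), IGF2BP1 (0.46), PCK1 (-1.98) and G6PC1 (-3.47), with 0 among the 10 genes in the top row.

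Insulin restrains IGFBP1 and several genes of glucose production through the same FOXO transcription factors, and 4 of the 5 other such targets on the list were detected. The mean of all 4 was lower in LN, and 2 had an unadjusted p of at most 0.05. The median of -1.19 lies between these 2 and the smaller differences of PPARGC1A, a coactivator of glucose production (-0.40, exact permutation p = 0.143), and PDK4, a brake on glucose oxidation (-0.40, exact permutation p = 0.686). PCK1 and G6PC1 were already known from these data as strongly lower in LN, so the list is no independent evidence of its direction. PCK1, the enzyme of the first committed step of gluconeogenesis, read 6.44, 8.05, 7.82 and 7.88 in LN fetuses L5, L6, L8 and L9, and 9.78, 9.75, 7.88 and 10.73 in HN fetuses L1, L2, L3 and L10. The difference was -1.98 (limma p = 0.00854, adjusted p = 0.760, exact permutation p = 0.0857), and HN L3 was the fetus that lay among LN.

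G6PC1, which releases free glucose in the last step, read 5.24, 7.85, 6.98 and 9.10 in LN fetuses L5, L6, L8 and L9, and 11.74, 11.95, 7.93 and 11.44 in HN fetuses L1, L2, L3 and L10. The difference was -3.47 (limma p = 0.00889, adjusted p = 0.760, exact permutation p = 0.0571), and HN L3 again lay among LN. IGFBP1, at -0.086, was the target with the smallest difference. The mean deviation of the 4 other targets was -1.89, -0.01, -1.06 and -0.17 in the LN fetuses and 1.31, 0.95, -0.38 and 1.25 in the HN fetuses, in the same order. For IGFBP1 these deviations were -0.53, 0.90, -0.69 and 0.15 in LN and 0.58, -0.13, -0.05 and -0.22 in HN. LN L5 and LN L8 were low and HN L1 high on both. LN L6, the highest fetus for IGFBP1, was near 0 in the mean of the other targets but was the highest for PDK4 (12.97). HN L2 and HN L10 were high in that mean and for PCK1 and G6PC1. For PPARGC1A they read 9.14 and 9.01, below LN L9 (9.30), and for PDK4 10.99 and 11.83.

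**Figure D5:**
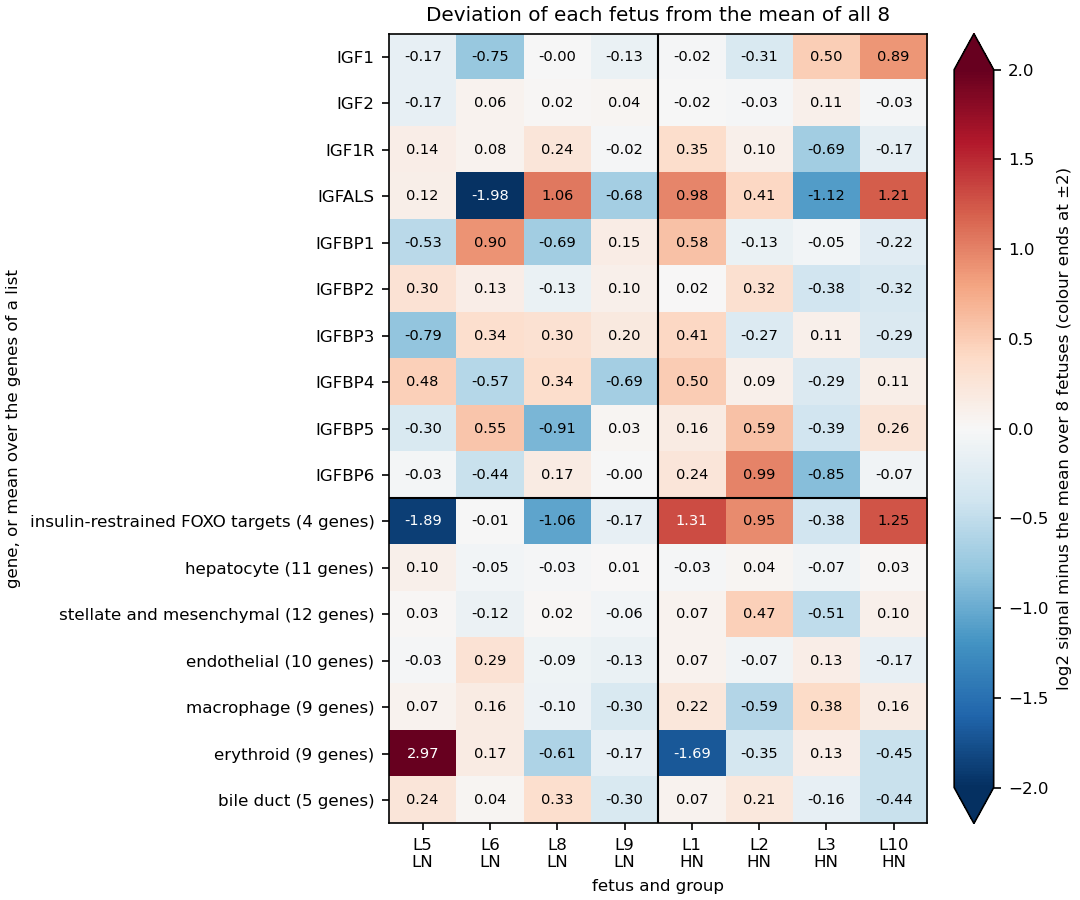
Deviation of each fetus (columns, LN then HN) from the mean of all 8 in log2 units, for the 10 genes (upper rows) and for the mean of the detected genes of each list (lower rows), with red above and blue below the mean and colour ending at 2 units. LN L5 is set apart by erythroid markers (2.97), HN L2 and HN L3 by mesenchymal (0.47 and -0.51) and macrophage markers (-0.59 and 0.38), and the hepatocyte row stays between -0.07 and 0.10. Several markers of the hepatocyte row lie near the bright end of the array.

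Hepatocyte markers were present in every fetus. Of 12 hepatocyte markers 11 were detected, with ALB between 17.81 and 17.89 over the 8 fetuses, 6 higher and 5 lower in LN, and a median difference of 0.0049. Several of them, such as ALB, TTR (18.32 to 18.42) and TF (18.32 to 18.47), lie near the bright end of the array. Their narrow spread is therefore no measure of hepatocyte content. Medians were -0.023 for 12 stellate and mesenchymal markers, 0.049 for 10 endothelial markers, -0.055 for 9 macrophage markers and 0.0064 for 5 bile duct markers. Leaving out 1 fetus turned the sign of the stellate and mesenchymal median (-0.27 without HN L3, 0.11 without HN L2), of the endothelial one (-0.050 without LN L6) and of the hepatocyte one (-0.014 without LN L5). The macrophage median went from -0.28 without HN L2 to -0.0099 without HN L3, and the bile duct median from 0.0021 without HN L10 to 0.23 without LN L9. Of all these 1 marker, KRT7 of bile duct cells, had an unadjusted p of at most 0.05. The 9 erythroid markers were all higher in LN, with a median of 1.21 that was 0.36 without LN L5.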

How the data were processed

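The authors deposited scanner output of each array, in which Agilent Feature Extraction 11.0.1.1 gives each spot a background-subtracted intensity, with no normalization between arrays. A table of log2 signals for 31068 probes, deposited by the authors beside it, served as an alternative. Its values differ by a median of 0.000104 from log2 intensities quantile normalized here over 31061 of its probes. By the methods, the authors normalized by quantiles in GeneSpring GX, and no test for the arrays is named there.

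Here control spots and 16 outlier-flagged probes were removed, repeat spots were averaged, and log2 intensities of 43637 probes were quantile normalized. Detection required a signal well above background on 4 or more arrays (33439 probes). Accessions of 26740 probes were matched to 12603 genes through RefSeq (ARS-UCD2.0). The array was designed on another build (UMD 3.1), so no coordinates are given. LN and HN were compared over all detected probes with limma 3.58.1 in R 4.3.3 (2-sided, Benjamini-Hochberg). Exact permutation tests were 2-sided over all 70 assignments, and over all pairings for correlations. The functions were tested on simulated data.

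All members are named, and beside them listed pathway genes with an unadjusted limma p of at most 0.05 or no overlap, the receptors IGF2R, INSR and GHR, and the 3 closest genes to each of the 3 members of widest range. PPARGC1A, PDK4 and the markers in the text fall outside this rule and were named after their values were seen. The members and lists were chosen with earlier results of these data known. Alternatives were 75th percentile scaling, normexp background correction (offset 50, on medians), the table of the authors, detection on 8 of 8 arrays or no detection filter, the trend and robust settings of eBayes, slide position as a block, each fetus left out, other probes or their mean, the Student's test of the methods, and array brightness as a covariate, which was added after seeing the data.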

Additional observations from a re-analysis of the deposited data

Results flagged for a closer look

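In 5 of 32 groups of 4 fetuses, over the 10 genes and the 6 pathway genes IGF2R, GHR, ADAMTS1, IGF2BP1, PCK1 and G6PC1, 1 fetus stood far from the other 3 of its group (Dixon's criterion at 95%, which chance meets in about 1 in 20 groups). LN L5 was low for IGF2 at 17.74, for IGFBP3 at 15.44 and for PCK1 at 6.44. HN L3 was high for IGF2 at 18.01 and low for G6PC1 at 7.93. The IGF2 values concern its brightest probe, where the whole range over the 8 fetuses was 0.26.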

How the results depend on the processing

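No paired analysis was possible because LN and HN share no replicate numbers in the labels. Over 202 alternative values of the 10 genes, 187 kept their direction and 15 in 4 genes (IGF2, IGFBP1, IGFBP3 and IGFBP6) did not, and the lowest adjusted limma p was 0.529. Among the reversed values were 0.042 and 0.024 for IGF2 on its 2 dimmest probes, 0.015 for IGFBP1 on its second probe and -0.046 for IGFBP3 with array brightness as a covariate. Leaving out 1 fetus gave others, such as 0.038 for IGF2 (without LN L5) and 0.13 for IGFBP1 (without LN L8). The same step gave -0.086 for IGFBP3 (without LN L6) and 0.15 for IGFBP6 (without HN L2). Outside the 10 genes, GHR was reversed at 0.014 with normexp. Slide position as a block, which sets the arrays at the same place on the 2 slides together, left 1 member (IGF1) with an unadjusted p of at most 0.05. Pairs at that p numbered 5 with 75th percentile scaling. Probes at that p, 2113 of those tested, numbered 3635 with brightness as a covariate. The causes were not tested.

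Leaving out 1 fetus gave ranges of -0.72 to -0.32 for IGF1, -0.041 to 0.038 for IGF2, 0.018 to 0.36 for IGF1R, -1.25 to -0.20 for IGFALS, -0.40 to 0.13 for IGFBP1, 0.094 to 0.33 for IGFBP2, -0.086 to 0.30 for IGFBP3, -0.41 to -0.019 for IGFBP4, -0.55 to -0.061 for IGFBP5 and -0.46 to 0.15 for IGFBP6. For the other named genes they were -0.067 to 0.12 for IGF2R, -0.17 to 0.27 for GHR, 0.55 to 0.85 for ADAMTS1, 0.30 to 0.61 for IGF2BP1, -2.54 to -1.59 for PCK1 and -4.43 to -2.78 for G6PC1. Members lower in LN numbered 5 to 8, members with an unadjusted p of at most 0.05 numbered 0 to 1 (1 without HN L2), pairs at that p 2 to 6, pathway genes 3 to 5, and probes 1343 (without HN L10) to 2638 (without HN L3). Besides marker lists, list medians that changed sign went from -0.13 (without LN L9) to 0.18 (without LN L5) for the growth hormone axis, -0.14 (without LN L5) to 0.20 (without HN L2) for the proteases and -0.22 (without LN L8) to 0.10 (without LN L5) for related secreted proteins. IGF2BP1 had an unadjusted p of 0.0681 by the 2-sided Student's test. Probes with an adjusted p of at most 0.05 numbered 0 to 1 (1 without LN L6). IGF1R and IGFALS rest on dim probes, which limits both.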
